A study of Sus scrofa with 24 samples.

Results

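Hepcidin and the genes that sense, store and move iron were examined in the liver transcriptome of 24 fattening pigs given anabolic steroid esters or left untreated. The 10 genes HAMP, TFR2, TFRC, SLC40A1, FTH1, FTL, TF, BMP6, ID1 and SMAD7 were sought by symbol in the deposited gene tables. Of these, HAMP, TFR2, FTL, BMP6 and SMAD7 were found among 13463 genes and all 5 passed the filter on low counts, as did 8279 genes in all. TFRC, SLC40A1, FTH1, TF and ID1 were not analysed here. The pigs were Large White, Landrace and Duroc hybrids kept in 1 trial, and each library held poly-A RNA from the liver of 1 pig. Sustanon, a mixture of testosterone esters, was injected into the neck muscle at 4 mg/kg in 3 castrated boars, 3 sows and 2 uncastrated boars. Myodin, a nandrolone ester, was injected in the same way at 5 mg/kg in 2 castrated boars, 3 sows and 3 uncastrated boars. The untreated control group held 3 castrated boars, 3 sows and 2 uncastrated boars. The study's methods call the sows gilts, and state repeated injections of the treated pigs after an earlier single trial dose. They also state separate pens for the tested groups and a separate room for the controls, so treatment and housing differed together. Castrated boars and sows are also described together below as pigs without testes.

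Hepcidin, the peptide encoded by HAMP, is made by hepatocytes and limits the entry of iron into blood by blocking and degrading ferroportin, the iron exporter. Its transcription follows body iron through bone morphogenetic proteins, of which BMP6 comes mainly from the endothelial cells of the liver sinusoids, and through a hepatocyte receptor complex that signals by SMAD proteins. TFR2 senses iron-loaded transferrin in that complex, SMAD7 is an inhibitor that the pathway induces against itself, and FTL is the light chain of ferritin, which stores iron. Inflammation also raises hepcidin through interleukin 6 and STAT3, and testosterone is known to lower hepcidin in humans and mice.

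Total counts ranged from 9267780 to 14017276 per library. The list of 8 hepatocyte markers, led by ALB and APOA1, summed to between 89752 and 209907 CPM (counts scaled to library size) in the 24 libraries, and the 4 skeletal muscle markers held in the tables to at most 4.59 CPM. EIF1AY, a gene of the Y chromosome, was counted 0 to 3 times in 7 of the sows and 327 to 564 times in 14 of the boars. The other 3 libraries went against their labels. Control castrated boar 15 had 1 count, and control sows 16 and 18 had 476 and 434 counts. These 3 pigs were kept under their labels, and calls and differences that were lost without them are named below. The study lists no testosterone or nandrolone in the serum of these 3 pigs, as in the other untreated pigs without testes. It lists testosterone in every untreated uncastrated boar. Of the 2 such boars with a library here, it also lists nandrolone in boar 27. Serum was sampled apart from liver, so this does not show which pig each library came from. The column header of Sustanon sow 6 carries the group number of castrated boars, and this pig was kept as a sow by its label.

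The 5 genes spanned a wide range of abundance. On the length-corrected TPM scale, which allows levels of different genes to be compared, FTL averaged 6701 TPM and ranked 19th among the genes in the tables by mean level. TFR2 averaged 417 TPM and HAMP 194 TPM, while BMP6 averaged 18.1 TPM and SMAD7 9.20 TPM. They also differed in how far pigs of 1 group lay apart. Within the 9 groups of treatment and sex status, the SD of log2 CPM was 0.99 for HAMP, which was larger than that of 97.9% of the tested genes, and larger than that of 99.4% of the 1043 genes of similar level. The same SD was 0.49 for BMP6, 0.31 for SMAD7 and 0.22 for both TFR2 and FTL, against 0.28 for the median gene.

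**Figure D1:**
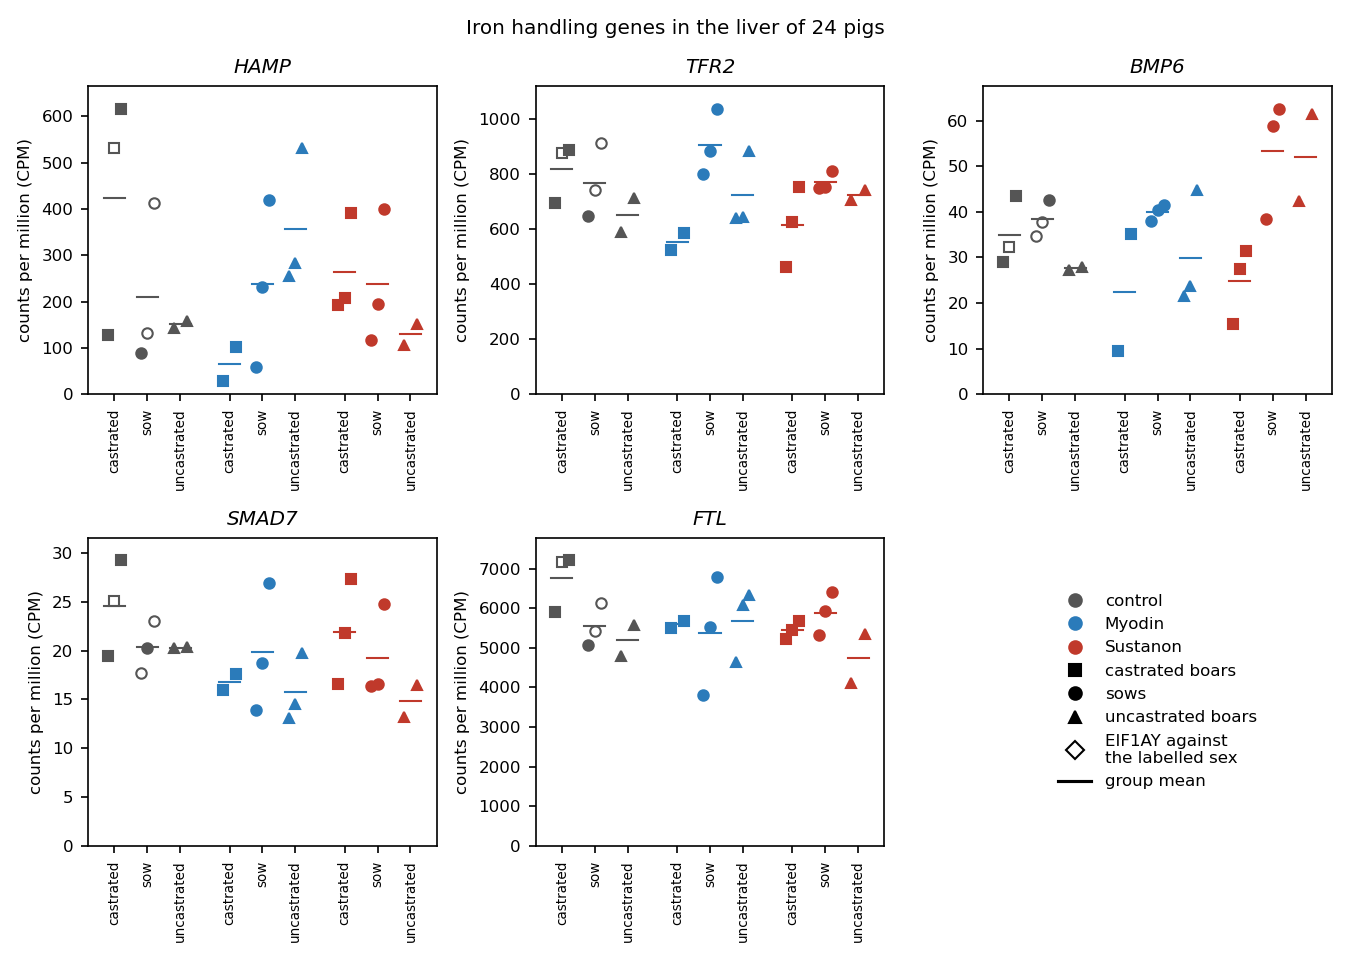
Expression of the 5 iron handling genes in CPM (vertical axes, starting at 0), 1 symbol per pig, in the 9 groups of treatment (colour) and sex status (shape), with the group mean as a line. Open symbols mark the 3 control pigs whose EIF1AY counts go against the labelled sex. HAMP runs from 28.8 to 616 CPM and overlaps between treatments, whereas FTL stays between 3805 and 7211 CPM. Within sex status, HAMP of the Myodin castrated boars lies below all other castrated boars. That of the Myodin uncastrated boars lies above all other uncastrated boars.

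HAMP (ENSSSCG00000035436; chromosome 6, 44785863 to 44787303 in Sscrofa11.1) varied 21.4-fold between pigs, and treatment did not separate them. In the untreated castrated boars it was 127, 616 and 531 CPM, in the untreated sows 412, 88.0 and 132 CPM, and in the untreated uncastrated boars 144 and 158 CPM. The 3 highest control values were thus those of castrated boars 14 and 15 and sow 16, of which the last 2 are pigs with a doubtful sex label. After Sustanon, HAMP was 391, 193 and 208 CPM in castrated boars, 118, 401 and 195 CPM in sows, and 152 and 106 CPM in uncastrated boars. After Myodin, it was 102 and 28.8 CPM in castrated boars, 420, 59.7 and 232 CPM in sows, and 284, 255 and 532 CPM in uncastrated boars. All 8 Sustanon pigs lay inside the range of the controls. In the Myodin group, the lowest 4 values were those of pigs without testes.

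Group means of HAMP ran from 425 CPM in control castrated boars through 357 CPM in Myodin uncastrated boars, 264 CPM in Sustanon castrated boars, 238 CPM in Sustanon sows, 237 CPM in Myodin sows, 211 CPM in control sows, 151 CPM in control uncastrated boars and 129 CPM in Sustanon uncastrated boars to 65.2 CPM in Myodin castrated boars. Neighbours in this order overlapped in their single pigs, except for the last step, where the higher Myodin castrated boar, at 102 CPM, lay just under the lower Sustanon uncastrated boar, at 106 CPM.

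Sustanon against control asks which liver transcripts move with testosterone esters. In edgeR's quasi-likelihood test with Benjamini-Hochberg adjustment over all tested genes, 5.07% of the 8279 genes were called at an adjusted p under 0.05, and 0 of the 5 iron handling genes. None of the 5 reached an unadjusted p under 0.05 in edgeR, and 0 were called by DESeq2 or limma. The mean of HAMP was 220 ± 114 CPM after Sustanon against 276 ± 210 CPM in controls (SD, n = 8 each), a log2 fold change of -0.32 (SE 0.49, 95% confidence interval -1.33 to 0.68, adjusted p = 0.78). Without the 3 pigs of doubtful label the value was -0.04 (adjusted p = 0.99).

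The other members were measured more tightly. TFR2 (ENSSSCG00000007671; chromosome 3, 8539316 to 8553993) averaged 700 ± 109 CPM with Sustanon and 758 ± 120 CPM in controls (SD, n = 8 each), and its log2 fold change of -0.12 had a confidence interval of -0.40 to 0.17. FTL (ENSSSCG00000003153; chromosome 6, 54231121 to 54232756) averaged 5437 ± 659 CPM against 5911 ± 894 CPM, with a log2 fold change of -0.12 and an interval of -0.37 to 0.13. Ferritin genes have many near-identical processed copies, and how reads shared with them were counted is not given in the sources used here, so the level of FTL is uncertain.

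SMAD7 (ENSSSCG00000004507; chromosome 1, 98512800 to 98543924) averaged 19.1 ± 4.9 CPM with Sustanon and 21.9 ± 3.7 CPM in controls (SD, n = 8 each), a log2 fold change of -0.20 (interval -0.51 to 0.12). BMP6 (ENSSSCG00000001027; chromosome 7, 5058817 to 5208868) averaged 42.3 ± 17.5 CPM against 34.4 ± 6.4 CPM, a log2 fold change of 0.30 (interval -0.24 to 0.84, adjusted p = 0.60). The spread of BMP6 was wider with Sustanon, from 15.4 CPM in castrated boar 3 to 62.6 CPM in sow 6, than in controls, from 27.3 to 43.5 CPM.

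**Figure D2:**
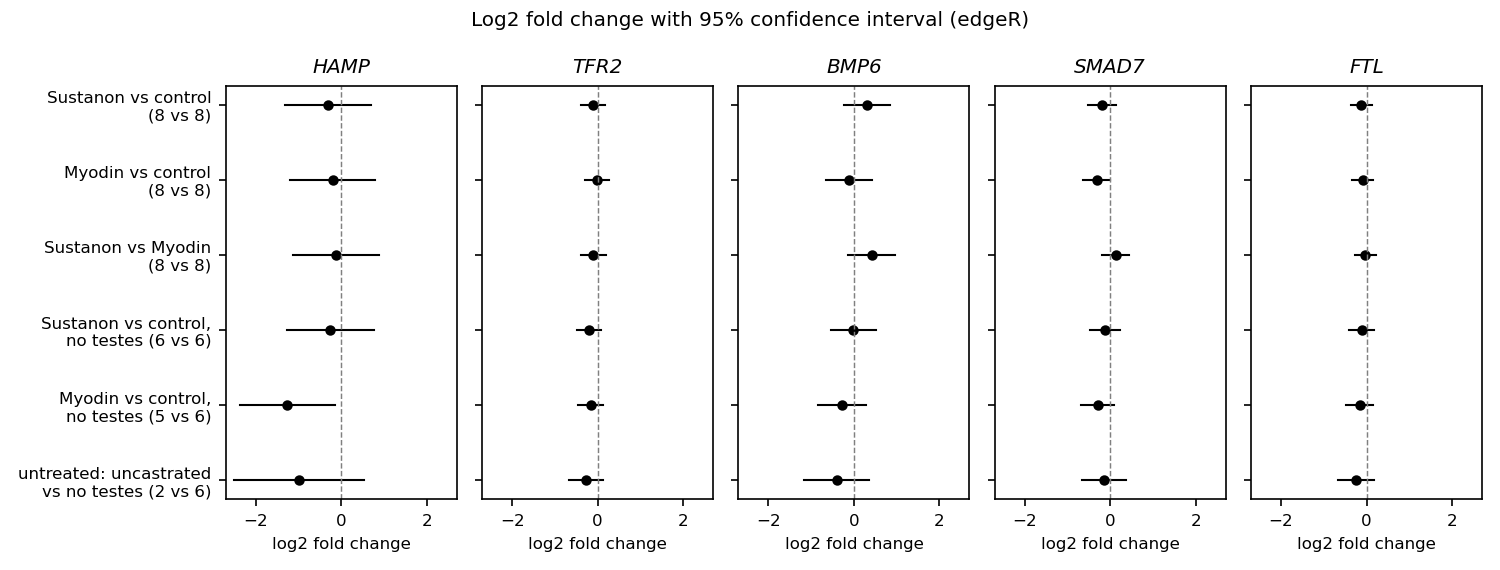
Log2 fold change (horizontal axes) of the 5 genes in 6 comparisons, from edgeR fits over all 24 libraries, with dots for the estimate and lines for the 95% confidence interval. Intervals of HAMP are the widest in every comparison shown, and only that of HAMP in Myodin pigs without testes, -2.38 to -0.15, lies wholly on 1 side of 0.

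For Myodin against control, 0% of the tested genes were called by edgeR, where 597 genes had an unadjusted p under 0.05 and DESeq2 called 1 gene, and likewise 0 of the 5 members. HAMP averaged 239 ± 176 CPM (SD, n = 8) with Myodin, a log2 fold change of -0.21 (interval -1.21 to 0.80, adjusted p = 0.98). This turned to 0.08 when the 3 pigs of doubtful label were left out. SMAD7 was closest to the unadjusted threshold, at 17.6 ± 4.5 CPM against 21.9 ± 3.7 CPM (SD, n = 8 each), with a log2 fold change of -0.32 and an unadjusted p of 0.0502 (adjusted p = 0.69). TFR2, FTL and BMP6 had log2 fold changes of -0.02, -0.09 and -0.11. The 2 steroids differed from each other in 0.664% of the genes and in 0 of the 5 members. HAMP differed by -0.12 (Sustanon less Myodin, interval -1.12 to 0.89) and BMP6 by 0.41 (interval -0.13 to 0.95, adjusted p = 0.42).

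The treated and untreated pigs without testes were also compared. Among these, 5.6% of the tested genes and 0 of the 5 members were called with Sustanon, and none of the 5 had an unadjusted p under 0.05. HAMP was 251 ± 117 CPM in the treated pigs against 318 ± 231 CPM in the untreated (SD, n = 6 each), a log2 fold change of -0.25 (interval -1.27 to 0.76, adjusted p = 0.83). Its sign depended on the pigs of doubtful label, since the value was 0.47 without them and 0.21 without control sow 16 alone. TFR2 had a log2 fold change of -0.21 (interval -0.48 to 0.07). That of BMP6, -0.01, averaged castrated boars, at 27.4, 31.4 and 15.4 CPM with Sustanon against 29.0, 43.5 and 32.2 CPM in controls, and sows, at 38.5, 58.7 and 62.6 CPM against 37.8, 42.7 and 34.7 CPM. The means thus lay lower with Sustanon in castrated boars and higher in sows, a difference that was not tested.

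HAMP was lower in Myodin pigs without testes than in their controls before adjustment, in a comparison where 0.0604% of all genes and 0 of the 5 members were called. It was 28.8 to 420 CPM with a median of 102 CPM in 5 Myodin pigs, and 88.0 to 616 CPM with a median of 272 CPM in 6 controls. The lowest 2 Myodin values, 28.8 and 59.7 CPM, lay below every control, and the other 3 within the controls' range. Means were 65.2 and 425 CPM in Myodin and control castrated boars, and 237 and 211 CPM in Myodin and control sows. The effect was not tested within each. Without the 3 pigs of doubtful label, the control castrated boars left were at 127 and 616 CPM, and the control sow left was at 88.0 CPM. Over castrated boars and sows together, the log2 fold change was -1.27 (SE 0.53, interval -2.38 to -0.15), with an unadjusted p of 0.0278 and an adjusted p of 0.41 in edgeR. It was -0.54 (adjusted p = 0.95) without the 3 pigs of doubtful label, and leaving out 1 pig at a time moved it between -1.86 (without Myodin castrated boar 8) and -0.80 (without control sow 16). The remaining 4 members had log2 fold changes between -0.16 and -0.29 there.

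In uncastrated boars the mean of HAMP was higher with Myodin, and in castrated boars lower, while the means of sows lay close together. All 3 Myodin uncastrated boars, at 255, 284 and 532 CPM, exceeded both untreated ones, at 144 and 158 CPM. This difference among uncastrated boars was not tested by itself. The untreated boar at 158 CPM, boar 27, is the one with nandrolone listed in its serum. The contrast below averages castrated boars and sows, and so leans on the 2 Myodin castrated boars. The difference between the Myodin effects with and without testes, added after these values had been seen, was 2.51 (SE 0.97, interval 0.48 to 4.54, unadjusted p = 0.0182) for HAMP. With an adjusted p of 0.30 in edgeR it was not called, in a contrast that called 0.109% of the genes and 0 of the 5 members, and it was 1.78 (adjusted p = 0.58) without the pigs of doubtful label. Markers of other cells differed between these boars as well, though none of the lists given here had a gene called in this contrast. The 8 genes of Kupffer cells and macrophages, of which 7 had positive values and 1 an unadjusted p under 0.05, as had 12.3% of all genes, summed to 1414 to 2204 CPM in the Myodin uncastrated boars, 1192 to 1413 CPM in the untreated uncastrated boars and 1178 to 1877 CPM in the Myodin and untreated pigs without testes. The 8 acute phase genes all had positive values, with 2 at an unadjusted p under 0.05. They summed to 72145 to 109553 CPM in the Myodin and 42499 to 65243 CPM in the untreated uncastrated boars. In pigs without testes these sums were 55807 to 114528 CPM with Myodin and 47888.5 to 107073 CPM untreated. The summed hepatocyte markers were at 89752 to 127398 CPM in the Myodin and 148783 to 150221 CPM in the untreated uncastrated boars. In pigs without testes they were at 105361 to 178066 CPM with Myodin and 112690 to 200083 CPM untreated. Of the 8 hepatocyte markers, 5 had positive values in the contrast (median 0.25) and the abundant ALB, APOA1 and APOB negative ones. Of the 8 endothelial markers, 7 had negative values, with a median of -0.69 and 3 at an unadjusted p under 0.05, and the 6 genes of red blood cell precursors, TFR2 among them, had a median of -0.95 and 0 at that p. The part of these cells and genes in the HAMP difference was not tested, and in bulk tissue fewer cells of a type cannot be told apart from less RNA per cell.

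The corresponding contrast for Sustanon called 0.0604% of the genes and 0 of the 5 members. It was 0.03 for HAMP (SE 0.97, adjusted p = 0.999) and 0.92 for BMP6 (interval -0.13 to 1.98, unadjusted p = 0.0831, adjusted p = 0.72). BMP6 was 42.4 and 61.6 CPM in the Sustanon uncastrated boars and 27.3 and 28.0 CPM in the untreated ones. How many of all genes separate groups this small was not counted. The pigs without testes in this contrast are the castrated boars and sows whose BMP6 values are given above, with means on opposite sides of their controls.

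Among untreated pigs, 1.65% of the genes and 0 of the 5 members differed between uncastrated boars and pigs without testes. HAMP was 151 ± 10 CPM (SD, n = 2) in the uncastrated boars, inside the 88.0 to 616 CPM of the other 6, with a log2 fold change of -0.98 (interval -2.51 to 0.54, adjusted p = 0.55). Against castrated boars only, the value was -1.49 (adjusted p = 0.41), and without the 3 pigs of doubtful label it was -0.26. Of the 8 acute phase genes, 7 had negative values in this comparison, with a median of -0.42 and 0 called. At an unadjusted p under 0.05 there were 2 of them, as were 15.5% of all genes, and their part in the HAMP difference was not tested. BMP6 was 27.3 and 28.0 CPM in the uncastrated boars and 29.0 CPM or more in the 6 other controls. Its log2 fold change was -0.41 (interval -1.17 to 0.36, adjusted p = 0.64 in edgeR).

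BMP6 and TFR2 were higher in sows than in castrated boars before adjustment. This contrast, averaged over the 3 treatments, was added after the values of BMP6 had been seen, and called 0.0725% of the genes and 0 of the 5 members. BMP6 was 34.7 to 62.6 CPM (median 40.3) in 9 sows and 9.52 to 43.5 CPM (median 30.2) in 8 castrated boars, so that the ranges overlapped between 34.7 and 43.5 CPM. The means of sows and castrated boars were 38.4 and 34.9 CPM in controls, 53.3 and 24.7 CPM with Sustanon, and 40.0 and 22.4 CPM with Myodin, so that they lay closest in the untreated pigs. Averaged over treatments, the log2 difference was 0.69 (SE 0.22, interval 0.24 to 1.15), with an unadjusted p of 0.0047 and an adjusted p of 0.28 in edgeR. It was 0.74 (adjusted p = 0.39) without the 3 pigs of doubtful label. Leaving out 1 Myodin castrated boar moved the difference either way. It was 0.48 without boar 8, which had the lowest BMP6 of all pigs, and 1.11 without boar 9, at 35.2 CPM. TFR2 was 648 to 1037 CPM (median 799) in sows and 462 to 888 CPM (median 660) in castrated boars, a log2 difference of 0.31 (interval 0.08 to 0.55, unadjusted p = 0.0115, adjusted p = 0.32). Without the 3 pigs of doubtful label it was 0.26 (unadjusted p = 0.0682).

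Sinusoidal endothelium is the main hepatic source of BMP6, and its markers were also examined in this contrast. All 8 measured markers, among them the clotting factor genes F8 and VWF and the lectin CLEC4G, had positive log2 differences between sows and castrated boars, with a median of 0.37 against 0.01 for all tested genes. None was called, and 7 of the 8 had an unadjusted p under 0.05, as had 11.5% of all genes. Other lists leaned the same way, with positive values in 7 of 8 hepatocyte, 7 of 8 acute phase, 6 of 8 macrophage, 5 of 5 stellate and stromal and 3 of 3 bile duct genes. The list of red blood cell precursors, TFR2 among them, had 4 positive and 2 negative values, with a median of 0.29. The summed endothelial level was 449 to 762 CPM in sows and 386 to 518 CPM in castrated boars. In Sustanon sows 4, 5 and 6 the sums were 524, 513 and 527 CPM, and BMP6 was 38.5, 58.7 and 62.6 CPM. In Myodin sows 10, 11 and 12 the sums were 742, 762 and 632 CPM, and BMP6 was 40.3, 41.4 and 38.1 CPM. In control sows 16, 17 and 18 the sums were 608, 457 and 449 CPM, and BMP6 was 37.8, 42.7 and 34.7 CPM. Whether the endothelial level accounts for the BMP6 difference was not tested.

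**Figure D3:**
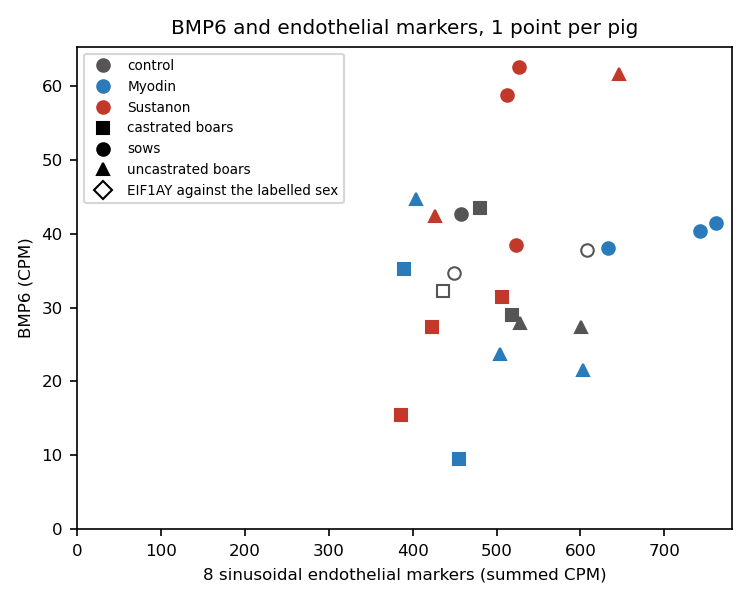
BMP6 in CPM (vertical axis) against the summed CPM of 8 sinusoidal endothelial markers (horizontal axis), 1 symbol per pig, with colour for treatment, shape for sex status and open symbols for the 3 pigs of doubtful label. Sows (circles) lie at 34.7 CPM of BMP6 or above, and castrated boars (squares) at 518 CPM of marker RNA or below.

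Between pigs, TFR2 and SMAD7 correlated positively with HAMP before adjustment over all genes. Over the 24 libraries, Pearson's r with HAMP on log2 CPM was 0.54 for TFR2 (Spearman's rho 0.59; permutation p = 0.0069 and 0.0026) and 0.46 for SMAD7 (rho 0.46; permutation p = 0.0220 and 0.0264). It was 0.18 for FTL (rho 0.21; permutation p = 0.40 and 0.34) and 0.09 for BMP6 (rho 0.07; permutation p = 0.66 and 0.72). These were 4 relations tested in 2 ways each, two-sided. Leaving out the 2 pigs with the most extreme HAMP left r at 0.61 for TFR2, 0.44 for SMAD7, 0.22 for FTL and 0.19 for BMP6, and centring each treatment group left it at 0.55, 0.46, 0.16 and 0.07. In a fit over all genes with treatment as a term, 0.0121% of 8278 genes had a slope on HAMP that was called, and 0 of the other 4 members. TFR2 and SMAD7 had slopes of 0.14 each, in log2 units per log2 unit of HAMP, with unadjusted p of 0.0068 and 0.0187 and adjusted p of 0.86 and 0.87 in edgeR. With limma on the deposited log2 values the slopes were 0.083 and 0.065, with unadjusted p of 0.0828 and 0.29.

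Within treatment groups of 8 pigs the relation was uneven. For SMAD7, r was 0.89 in controls, 0.93 with Sustanon and 0.06 with Myodin, and for TFR2 it was 0.88, 0.12 and 0.56 in the same order. The differences between these coefficients were not tested. In the Myodin group, uncastrated boar 24 had the highest HAMP, at 532 CPM, and the lowest SMAD7 of all 24 pigs, at 13.1 CPM.

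**Figure D4:**
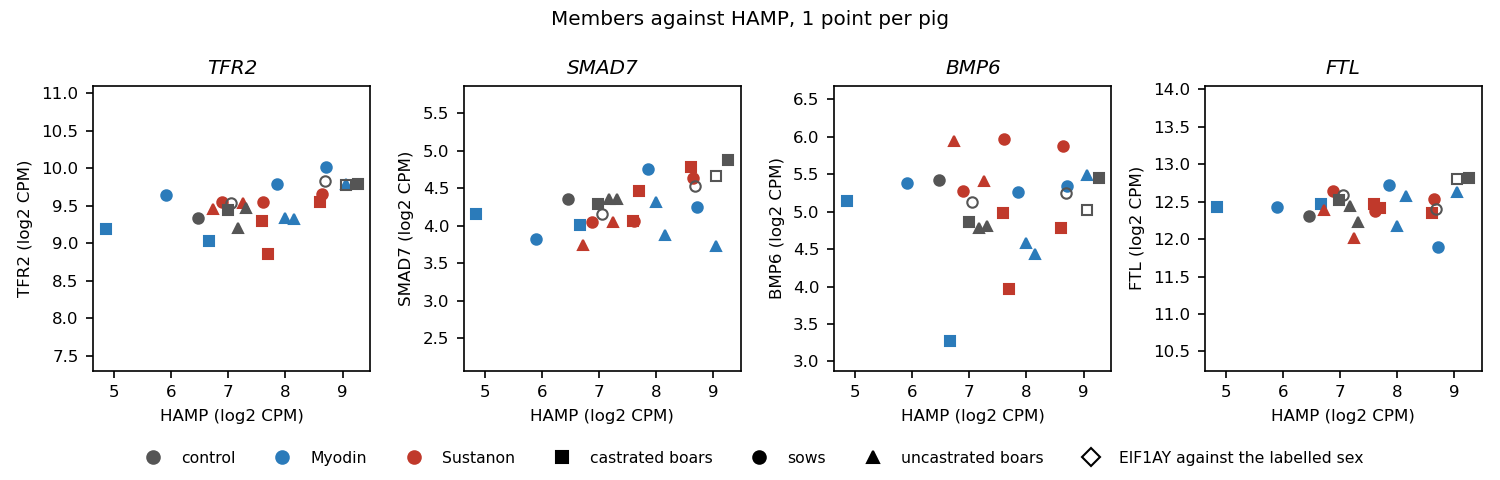
Log2 CPM of TFR2, SMAD7, BMP6 and FTL (vertical axes, each spanning the same number of log2 units) against log2 CPM of HAMP (horizontal axes), 1 symbol per pig. TFR2 and SMAD7 correlate positively with HAMP over the 24 pigs (r = 0.54 and 0.46), while BMP6 and FTL show r of 0.09 and 0.18.

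The genes whose pattern was most like that of HAMP over the 24 libraries, by Spearman's rho on log2 CPM, were MT1A, a metallothionein that binds zinc and copper (rho = 0.73), ENSSSCG00000037566, which has no symbol in the tables (rho = 0.71), NNMT, nicotinamide N-methyltransferase (rho = 0.68), the complement gene C4A (rho = 0.68) and C7orf50 (rho = 0.63). They were picked as the highest of 8278 coefficients. C7orf50 was also the gene called in the slope fit (slope 0.29, SE 0.05, adjusted p = 0.0292), and 0 genes were called with the 9 groups as terms, without the 3 pigs of doubtful label or by limma. Acute phase genes, which inflammation induces in hepatocytes, had positive slopes on HAMP in 8 of 8 measured cases, with a median of 0.17 against 0.00 over all genes. SERPINA3-2, a protease inhibitor, had a slope of 0.29 (adjusted p = 0.60) and CRP, C-reactive protein, one of 0.41 (adjusted p = 0.86), and 0 of the 8 were called while 5 had an unadjusted p under 0.05, as had 5.24% of all genes. The 8 Kupffer cell and macrophage markers likewise all had positive slopes, with a median of 0.09, 2 at an unadjusted p under 0.05 and 0 called. Of 26 measured genes of hepcidin control, 14 had positive slopes, with 3 at an unadjusted p under 0.05, 0 called and a median of 0.00. The list of red blood cell precursors holds TFR2 itself. Of its 5 other measured genes 4 had negative slopes, including 2 at an unadjusted p under 0.05, and 0 were called. These were the globin genes HBM, at -0.33, and HBB, at -0.29, AHSP, a chaperone of alpha globin, at -0.31, and ALAS2, the erythroid enzyme that starts heme synthesis, at -0.26, while EPB42, a red cell membrane protein, had a slope of 0.05 (adjusted p of at least 0.89 in edgeR).

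Regulators of hepcidin were not called after either steroid, with 26 of 42 listed genes measured. In Sustanon against control, where 5.07% of all genes were called, 3 of the 26 were higher and 5 lower at an unadjusted p under 0.05, as were 19.6% of all genes in either direction. Of the 26, 12 had positive and 14 negative log2 fold changes, with a median of -0.05 against -0.01 for all tested genes. The lowest p belonged to ID3, a direct target of BMP signalling, at -0.27 (adjusted p = 0.0882), and ATOH8, a transcription factor that acts on the HAMP promoter, at -0.78 (adjusted p = 0.18). HJV, the BMP co-receptor hemojuvelin, had a value of -0.45 (adjusted p = 0.24), HFE, the partner of TFR2, of -0.34 (adjusted p = 0.27), and TMPRSS6, the protease that cleaves hemojuvelin, of 0.11 (adjusted p = 0.68). In Myodin against control, 0 of the 26 were called and 1, ACVRL1, had an unadjusted p under 0.05.

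ACVRL1, an endothelial receptor for BMP ligands, was the 1 gene of these 26 called among untreated pigs, where 1.65% of all genes were called. It was 21.2 and 21.5 CPM in the uncastrated boars and 11.2 to 17.1 CPM in the 6 pigs without testes. The log2 fold change was 0.73 (SE 0.18, adjusted p = 0.0449 in edgeR). The call was marginal: it was lost without the 3 pigs of doubtful label (0.84, adjusted p = 0.11), and in 14 of the 24 fits that left out 1 pig, where the adjusted p reached 0.40. It was also lost with no count filter (adjusted p = 0.0686), in a fit of the untreated pigs alone (0.0634) and against castrated boars only (0.0596). Of the 8 endothelial markers, 6 had positive log2 fold changes in the same comparison, with a median of 0.17 and a range of -0.17 to 0.67. At an unadjusted p under 0.05 there were 2 of the 8, as were 15.5% of all genes, and 0 were called.

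A few genes of heme and iron handling were called in Sustanon against control, beside 5.07% of all tested genes, and nothing particular to these lists is read from their number. In heme and hemoglobin salvage, 1 of 9 measured genes rose and 1 fell. BLVRB, biliverdin reductase B, was 132 to 232 CPM (median 165) in the 8 Sustanon pigs and 78.3 to 128 CPM (median 103) in the 8 controls, and every Sustanon pig exceeded every control. Its log2 fold change was 0.72 (SE 0.15, adjusted p = 0.0114), and 0.84 (adjusted p = 0.0015) among pigs without testes. SLC48A1, which carries heme out of endosomes and lysosomes, was 17.4 to 33.7 CPM with Sustanon and 24.6 to 51.4 CPM in controls, where 4 of the 8 treated pigs lay below every control. Its log2 fold change was -0.60 (SE 0.16, adjusted p = 0.0279), and -0.63 (adjusted p = 0.0278) among pigs without testes, where it was -0.42 (adjusted p = 0.35) without the 3 pigs of doubtful label.

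In iron uptake, storage and export, 1 of 11 tested genes fell. SLC39A8, a transporter of zinc, manganese and iron, was 29.7 to 49.3 CPM with Sustanon and 42.0 to 63.6 CPM in controls, with 7 of 8 treated pigs below every control and a log2 fold change of -0.54 (SE 0.15, adjusted p = 0.0375). CISD2, an iron-sulfur protein of the endoplasmic reticulum and mitochondrial membranes, rose among pigs without testes, from 25.2 ± 4.9 to 36.8 ± 4.5 CPM (SD, n = 6 each), with a log2 fold change of 0.55 (SE 0.13, adjusted p = 0.0207). It was 0.52 (adjusted p = 0.17) without the 3 pigs of doubtful label, and 0.38 (adjusted p = 0.19) over all pigs. In iron-sulfur cluster assembly, 2 of 17 genes rose. FDX1, a ferredoxin, had a log2 fold change of 0.42 (adjusted p = 0.0484) and IBA57, a late-acting assembly factor, of 0.28 (adjusted p = 0.0369). None of the 6 measured heme synthesis genes was called, and 0 of them had an unadjusted p under 0.05.

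APCS, serum amyloid P component, was the acute phase gene that rose, 1 of 8 measured. It was 1813 to 4379 CPM with Sustanon and 747 to 1645 CPM in controls, again without overlap, with a log2 fold change of 1.63 (SE 0.36, adjusted p = 0.0129). The hepatocyte marker APOA2, an apolipoprotein, rose by 1.07 (adjusted p = 0.0251), while the 8 hepatocyte markers together summed to 131324 to 209907 CPM with Sustanon and 112690 to 200083 CPM in controls. All calls of these lists in Sustanon against control were lost when the 3 controls of doubtful label were left out. That fit called 0 genes of all those tested. It had fewer controls and no term for sex status, and whether the labels or the smaller group cost the calls was not tested. BLVRB was then 0.69 (adjusted p = 0.12), APCS 1.55 (adjusted p = 0.13), SLC48A1 -0.54 (adjusted p = 0.18) and SLC39A8 -0.61 (adjusted p = 0.13). APOA2 was 0.98 (adjusted p = 0.17), FDX1 0.43 (adjusted p = 0.18) and IBA57 0.20 (adjusted p = 0.28). Among pigs without testes and without these 3, BLVRB was still called (0.91, adjusted p = 0.0388). APCS (1.89, adjusted p = 0.0863), SLC39A8 (-0.70), IBA57 (0.26), APOA2 (0.81), CISD2 (0.52) and SLC48A1 (-0.42) were not. The calls of BLVRB and APCS held in all 24 fits that left out 1 pig, with adjusted p of at most 0.0303 and 0.0311. That of FDX1 was lost in 18 of them, those of SLC39A8 and IBA57 in 10 each, and that of SLC48A1 in 7. By limma the adjusted p was 0.0694 for SLC39A8, 0.23 for IBA57 and 0.0555 for FDX1, and with no count filter 0.0673 for IBA57 and 0.0690 for FDX1. Among pigs without testes, the call of IBA57 was lost in 4 of 6 alternatives, those of SLC48A1, SLC39A8 and APOA2 in 2 each, those of APCS and CISD2 in 1 each, and that of BLVRB in 0.

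**Figure D5:**
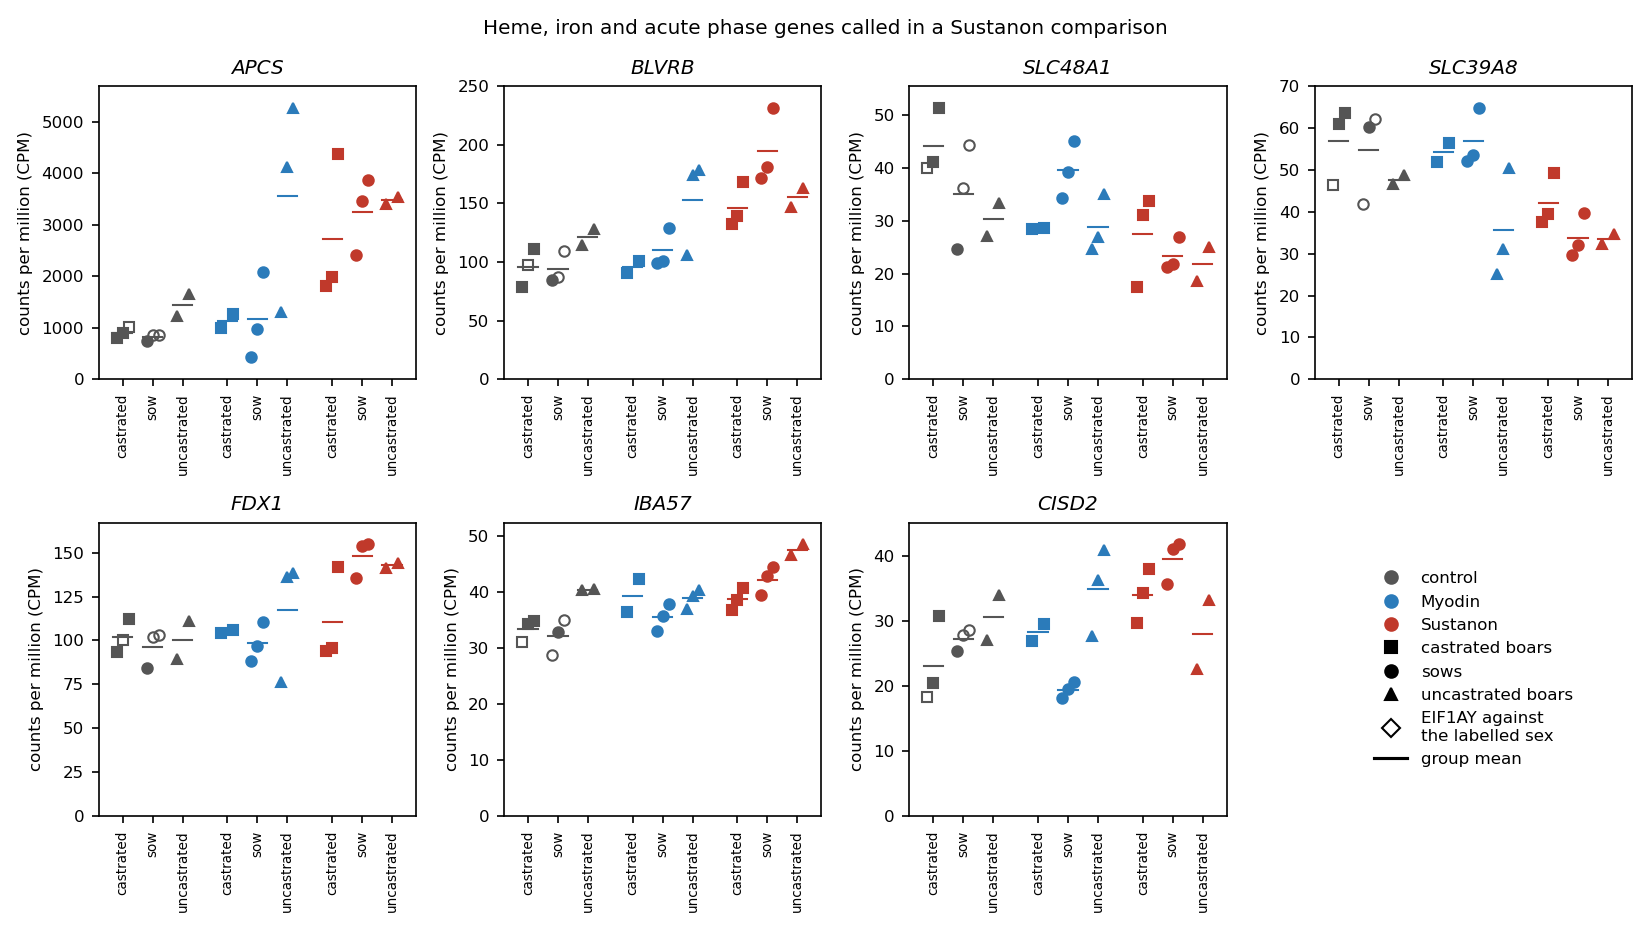
CPM (vertical axes, starting at 0) of the 7 genes of the heme, iron, iron-sulfur and acute phase lists that were called in a Sustanon comparison, 1 symbol per pig, by treatment (colour) and sex status (shape), with group means as lines and open symbols for the 3 pigs of doubtful label. BLVRB and APCS are higher in all 8 Sustanon pigs than in any control. Myodin uncastrated boars 23 and 24, in whose serum the study lists testosterone, also exceed every control. They are at 174 and 179 CPM of BLVRB and 5270 and 4124 CPM of APCS. The highest Sustanon value of APCS is 4379 CPM.

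In Myodin against control, 0% of all tested genes were called, and so 0 of these lists. APCS had a log2 fold change of 1.04 (unadjusted p = 0.0077, adjusted p = 0.52), with 1303, 5270 and 4124 CPM in the uncastrated boars and 439 to 2073 CPM in the 5 pigs without testes. BLVRB was 106, 174 and 179 CPM in the same boars and 90.9 to 129 CPM in these 5 pigs. These boars are given in the order 22, 23 and 24. The study lists testosterone in the serum of boars 23 and 24 but not of boar 22 or these 5 pigs. Its part in the values of APCS and BLVRB was not tested. Of the 8 Kupffer cell and macrophage markers, 5 had an unadjusted p under 0.05, as had 7.21% of all genes, and were higher with Myodin, as in C1QA (0.55, adjusted p = 0.35). In Sustanon against Myodin, where 0.664% of all genes were called, 2 of these 8 markers were called: C1QA and C1QC, subunits of complement C1q made by macrophages, were lower with Sustanon, by -0.62 (adjusted p = 0.0321) and -0.59 (adjusted p = 0.0399), and the summed marker level of the 8 was 1048 to 1474 CPM with Sustanon and 1299 to 2204 CPM with Myodin. The 8 hepatocyte markers all had positive values in this comparison, with a median of 0.29 and 0 called. At an unadjusted p under 0.05 there were 2 of them, as were 18.1% of all genes. They summed to 131324 to 209907 CPM with Sustanon and 89752 to 178066 CPM with Myodin. The calls of C1QA and C1QC were marginal. That of C1QC was lost without the 3 pigs of doubtful label (-0.59, adjusted p = 0.0585) and in 11 of the 24 fits without 1 pig, where the adjusted p reached 0.0971, and also by limma (adjusted p = 0.0585) and in a fit of the 2 groups alone (0.10). That of C1QA was lost in 8 of the 24 fits, where it reached 0.0951, and in the 2 groups alone (0.0736), and held without the 3 pigs (0.0444).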

How the data were processed

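Liver poly-A RNA of 24 pigs was sequenced by the authors from stranded libraries. Reads were trimmed (Skewer) and aligned to Sscrofa11.1 (STAR 2.5, per the submitters' processing notes). The authors deposited raw read counts per gene, and the same libraries as log2(TPM + 1); the counting tool, its strand setting and the treatment of shared reads are not given in the sources used here. Tests were two-sided and used the quasi-likelihood method of edgeR 4.0.16 (R 4.3.3) after TMM scaling and its filterByExpr filter, set on the treatments, in 1 fit of the 3 treatments, 1 of the 9 groups of treatment and sex status, and 1 with treatment and a slope on the log2 CPM of HAMP (prior count 2). A call is a Benjamini-Hochberg adjusted p under 0.05 over all tested genes. The study's methods name DESeq2, which was run as an alternative (1.42.0), as was limma 3.58.1 on the deposited log2 values. Coordinates and 359 of the 3779 missing symbols came from RefSeq and gene name tables of the same build. Of 200 genes changed in simulated counts, edgeR recovered 94% at a log2 fold of 1 and 98% at 2 in Sustanon against control. In the interaction it recovered 35% and 88%. The fits held 8246 and 8243 genes. The changed genes were drawn from those with higher counts, each with its own spread within the 9 groups. No differences by sex status were simulated. These rates are averages over such genes and do not give the power for a gene as variable as HAMP. The 21 pairs of libraries of 1 group all differed by more than counting noise (chi-square per degree of freedom of at least 24.3). Permutation tests used 100000 resamples.

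The members and gene lists were chosen with earlier results of these data known. Named were every member in the tables, the called genes of each list (at most 6) or, for selected comparisons, genes with the smallest p, the 5 genes most like HAMP by rho, and EIF1AY. Genes named for their role (HJV, HFE, TMPRSS6, CRP, HBM, HBB, AHSP, ALAS2, EPB42, F8, VWF, CLEC4G) were added after their values were seen. Promoter and protein sequences were not analysed here.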

Additional observations from a re-analysis of the deposited data

Results flagged for a closer look

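In each treatment group of 8 pigs, Dixon's criterion compared the gap between the highest or lowest library and the next with the full range. It was applied at both ends for the 5 members in each treatment group, 30 tests in all. Of these 15 sets, 2 held a pig that stood apart, and chance flags about 1 in 20. TFR2 was 462 CPM in Sustanon castrated boar 3, the lowest of all 24 pigs, against 627 CPM or more in the other Sustanon pigs. The same boar had the lowest BMP6 of its treatment group. FTL was 4120 CPM in Sustanon uncastrated boar 19, against 5228 CPM or more in the other Sustanon pigs. No cause was tested for either.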

How the results depend on the processing

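The 5 members were recomputed with DESeq2, RLE scaling, no count filter, limma on the deposited log2 values, the compared groups alone, other covariates, and without each pig in turn. Of 1476 such values, 1421 kept direction and side of the threshold, 54 changed sign and 1 became called. Without the 3 pigs of doubtful label, HAMP turned to 0.084 in Myodin against control, 0.47 in Sustanon against control without testes, -0.70 in the Sustanon interaction and -0.11 in sows against castrated boars, and TFR2 to 0.087 in Myodin against control. With limma, HAMP turned to 0.26 and FTL to 0.026 in Sustanon against Myodin, SMAD7 to 0.039 among untreated pigs, HAMP to -0.25 in the Sustanon interaction, and the slopes of FTL and BMP6 to -0.024 and -0.026. With 9 groups these slopes were -0.00348 and -0.00165, and BMP6 was 0.0047 without testes when Sustanon and control were fitted alone. Leaving out 1 pig moved HAMP from -0.48 to 0.072, TFR2 from -0.096 to 0.046 and BMP6 from -0.20 to 0.024 in Myodin against control, HAMP from -0.31 to 0.16 and FTL from -0.092 to 0.021 in Sustanon against Myodin, and HAMP from -0.56 to 0.21 and BMP6 from -0.11 to 0.11 in Sustanon pigs without testes. It moved BMP6 from -0.91 to 0.035 in Myodin pigs without testes, HAMP from -0.44 to 0.33 and FTL from -0.22 to 0.16 in the Sustanon interaction, BMP6 from -0.0025 to 1.02 and SMAD7 from -0.26 to 0.078 in the Myodin interaction, HAMP from -0.078 to 0.63 in sows against castrated boars, the slope of BMP6 from -0.013 to 0.060, and the members called in sows against castrated boars from 0 to 1. The causes were not tested. Sustanon against control called 420 genes, 637 by DESeq2 and 0 without the 3 pigs. Sustanon against Myodin called 55, 276 by DESeq2, 390 with sex status as a covariate, 36 with no count filter, 29 without the 3 pigs and 9 in the 2 groups alone. Without testes, Sustanon called 464, 701 by DESeq2 and 73 without the 3 pigs, and Myodin 5, 80 by DESeq2, 17 in the 2 groups alone, and 0 by limma and without the 3 pigs. The Sustanon interaction called 5, 45 by DESeq2 and 0 without the 3 pigs, the Myodin interaction 9, 95 and 1, and sows against castrated boars 6, 33 and 15, with 0 by limma and in the 2 groups alone. The untreated comparison called 137, 291 by DESeq2, 38 without the 3 pigs and 63 against castrated boars only. With a log2 fold change of at least 1 required as well, 129 genes were called in Sustanon against control, 169 without testes, 17 in Sustanon against Myodin, 3 in Myodin without testes and 77 among untreated pigs. A group left with 1 pig was assumed to vary like the others. No paired analysis was possible because the groups share no replicate numbers.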
